A study of Drosophila melanogaster with 58 samples.

Results

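E2F + CycD wings at 44 h after puparium formation (APF) were compared with control wings of the same age by RNA-seq. The comparison rested on 4 libraries, 2 of E2F + CycD wings and 2 of control wings, chosen by their labels from the 24 RNA libraries among the 58 samples of the series. These wings came from female *Drosophila melanogaster* that carried hs-FLP, a tub>CD2>GAL4 flip-out driver, UAS-GFP and tub-gal80TS, a temperature-sensitive block on GAL4. E2F + CycD wings also carried UAS-CycD and UAS-Cdk4 on one chromosome and UAS-E2F1 and UAS-DP on another. Control wings, labelled as flp controls, expressed GFP alone. A heat shock in second instar larvae removed the CD2 cassette, animals were kept cool until the equivalent of 12 h APF, and a shift to a warmer temperature then released GAL4. The 24 h and 44 h ages are equivalents of development at the standard temperature. The tubulin promoter is active in most tissues, so expression was not restricted to wing epithelium. The same 12-library experiment held E2F wings, with UAS-E2F1 and UAS-DP alone at a different insertion, and all 3 genotypes at 24 h. Wild-type wings at 36 h and 44 h, 4 further libraries, were used for a separate comparison. The heat shock and temperature shift are described for the transgenic animals only. Nothing in the labels says that the 2 libraries of a group came from separate cultures or pools of animals, so the p-values measure the spread between these libraries, which may be technical.

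E2F1 and its partner DP form a transcription factor that binds promoters of genes for DNA synthesis and mitosis, and the retinoblastoma-family protein Rbf holds it in check. Cyclin D with its kinase Cdk4 phosphorylates Rbf and in flies also drives cell growth. Wing cells normally leave the cell cycle at about 24 h APF, then form hairs and deposit adult cuticle. Both regulators were supplied here from the equivalent of 12 h APF, before that exit, until dissection. The genes of the study's own cell cycle, cuticle and ecdysone lists were counted apart, and the account below follows the rest of the transcriptome by function.

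E2F binding words and the DNA replication-related element (DRE), a motif common near fly genes used in growth and replication, were looked up in promoters of 300 bases (250 before to 50 after the annotated gene start). The 4 genes below were chosen after their values were seen. *Ts*, *PolE2* and *BthD* are the members of the 10 strongest increases whose promoter held an E2F word, and *Rcc1* is the most increased gene of the nuclear transport list. Other increased genes also held such words, for example *RnrS* with 2. They encode thymidylate synthase (*Ts*), the Ran exchange factor *Rcc1*, a DNA polymerase epsilon subunit (*PolE2*) and the selenoprotein *BthD*. Sequences run 5′ to 3′ on the gene's strand of Release 6 (dm6), read from the RefSeq assembly, and capitals mark the words found on either strand.
Ts (chr2L:2969589-2969888, minus strand): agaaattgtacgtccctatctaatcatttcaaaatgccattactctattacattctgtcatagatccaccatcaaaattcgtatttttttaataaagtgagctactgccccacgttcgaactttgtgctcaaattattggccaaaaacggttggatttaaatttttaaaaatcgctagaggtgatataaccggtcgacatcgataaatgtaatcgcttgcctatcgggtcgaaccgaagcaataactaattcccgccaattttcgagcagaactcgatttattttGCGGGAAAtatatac
Rcc1 (chr3L:5932724-5933023, minus strand): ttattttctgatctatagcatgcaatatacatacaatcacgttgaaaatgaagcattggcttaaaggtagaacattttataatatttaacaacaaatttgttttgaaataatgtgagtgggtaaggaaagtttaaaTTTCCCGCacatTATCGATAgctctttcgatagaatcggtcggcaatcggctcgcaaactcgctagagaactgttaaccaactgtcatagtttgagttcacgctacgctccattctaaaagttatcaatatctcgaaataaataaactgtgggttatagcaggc
PolE2 (chr3L:5897386-5897685, minus strand): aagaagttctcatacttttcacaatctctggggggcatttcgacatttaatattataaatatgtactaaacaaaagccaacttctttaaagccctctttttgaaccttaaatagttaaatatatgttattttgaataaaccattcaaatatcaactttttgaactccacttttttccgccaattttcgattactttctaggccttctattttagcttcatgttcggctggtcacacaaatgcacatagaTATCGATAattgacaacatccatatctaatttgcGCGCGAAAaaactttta
BthD (chrX:13611881-13612180, plus strand): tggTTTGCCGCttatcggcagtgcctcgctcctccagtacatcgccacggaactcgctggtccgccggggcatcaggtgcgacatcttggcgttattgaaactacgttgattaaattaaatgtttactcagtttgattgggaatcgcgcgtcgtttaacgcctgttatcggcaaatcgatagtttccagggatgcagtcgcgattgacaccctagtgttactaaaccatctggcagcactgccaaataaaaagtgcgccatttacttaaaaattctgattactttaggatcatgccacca
The E2F words searched were TTTCCCGC, TTTCGCGC, TTTGGCGC and TTTGCCGC, and the DRE word was TATCGATA, which reads the same on both strands. The E2F word began 35 bases after the start of *Ts*, 114 bases before that of *Rcc1*, 33 bases after that of *PolE2* and 247 bases before that of *BthD*. *Rcc1* and *PolE2* also held a DRE word, and the 2 words of *Rcc1* lay 4 bases apart. Over all 8953 promoters of tested genes outside the 3 lists, 7.05% held an E2F word. The share was 10.14% (118 of 1164) among genes called higher in E2F + CycD wings and 7.12% (103 of 1447) among genes called lower. The DRE word was in 15.29% of promoters of the higher genes, 5.39% of the lower genes and 12.41% of all. For the higher genes of the cell cycle list the shares were 15.86% and 23.35% of 227 promoters. Median GC content was 37.7% for promoters of the higher genes, 42.3% for the lower genes and 38% for all. A match describes letters in the window and no binding was measured.

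At 44 h the libraries held 15662597 and 13467933 counts in E2F + CycD wings, against 13992705 and 13645342 in control wings, and the 12 transgenic libraries ranged between 11201219 and 16332737. Levels below are CPM, counts per 1000000 of a library size scaled by TMM, the trimmed mean of M values, and 3 counts, taken as the floor of detection, corresponded to 0.171 and 0.192 CPM in E2F + CycD wings and to 0.366 and 0.389 CPM in control wings. Log2 fold changes and standard errors (SE) come from edgeR's quasi-likelihood fit of the 12 libraries, with p adjusted by Benjamini-Hochberg over 9636 tested genes of 17559. A gene was called, and is said to have risen or fallen, when its adjusted p was under 0.05 and its log2 fold change above 1 or below −1. The composition of the RNA differed greatly between the groups. Genes called lower held 20.4% and 19.2% of all counts in E2F + CycD wings, against 63.6% and 58.5% in control wings, and the TMM factors were 1.12 and 1.16 against 0.585 and 0.565. The choice of scaling matters for this reason. Scaled by library totals instead, the median tested gene moved from −0.06 to 0.92 on the log2 scale, a shift of 0.979, and the calls moved from 1458 higher and 1556 lower to 4102 higher and 614 lower. All changes below are relative to the typical gene, since a shift of this size turns many small differences. Of the 34 functional lists 18 had a median log2 fold change below 0, and under library totals 17 of these medians were above 0, the exception being the V-ATPase list.

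The transgenes were checked first. *CycD* (FBgn0010315; dm6 chromosome X, 15906822 to 15909676) stood at 1771 and 1826 CPM in E2F + CycD wings, against 27.1 and 27.4 CPM in control wings. Its log2 fold change was 6.04 ± 0.21 (SE; adjusted p = 3.3e-08). *Cdk4* (FBgn0016131; 2R, 16579470 to 16585448), its kinase partner, had 474 and 413 CPM, against 40.4 and 42.1 CPM in control wings, a log2 fold change of 3.43 ± 0.21 (adjusted p = 3.3e-07). Both are transgenes of this genotype alone, and E2F wings held 30.7 and 27.9 CPM of *CycD* and 27.1 and 21.9 CPM of *Cdk4* at the same age. *E2f1* (FBgn0011766; 3R, 21620304 to 21660871) had 1589 and 1976 CPM in E2F + CycD wings, against 104 and 133 CPM in control wings and 3823 and 4418 CPM in E2F wings. It rose by 3.91 ± 0.24 over control (adjusted p = 3.1e-07) and lay below E2F wings by a log2 difference of −1.21 (adjusted p = 0.0021). *Dp* (FBgn0011763; 2R, 13222433 to 13228202) gave a different picture. E2F + CycD wings held 86.1 and 90.7 CPM, against 65.4 and 57.8 CPM in control wings, while E2F wings held 1093 and 1250 CPM. The *Dp* difference from control was 0.52 ± 0.15 (adjusted p = 0.012) and was not called, although the genotype lists UAS-DP, and the difference from E2F wings was −3.73. The counts do not separate transgene from endogenous transcripts.

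Of the 9636 tested genes, 1458 (15.1%) rose and 1556 (16.1%) fell in E2F + CycD wings. The study's 3 lists accounted for a small part of these. The cell cycle list had 232 of 290 tested genes higher and 3 lower, the cuticle list 16 of 142 higher and 72 lower, and the ecdysone list 12 of 44 higher and 11 lower. The study compiled the cell cycle list from an earlier analysis of cell cycle exit, and how the other lists were chosen is not given in the sources used here. Without control replicate 1 the lower count of the ecdysone list was 7. Outside them 9164 genes were tested, of which 1200 (13.1%) rose and 1471 (16.1%) fell, and these shares are the background for every group below. The 2 libraries of each group did not overlap with the other group for 1199 of the 1200 and 1463 of the 1471. The same held for 6670 of all 9164 genes, and the thresholds of a call themselves favour such a separation. Of the higher genes 31.1% and of the lower genes 36.8% carried only a CG or CR number, against 33.0% of all tested. Of the 82 tested genes of chromosome 4, the small and largely heterochromatic autosome, 23 fell and 0 rose in edgeR (0 in DESeq2, and 1 higher at an unadjusted p under 0.05), with a median log2 fold change of −0.61, against −0.06 over all tested genes.

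The strongest increases, among genes with at least 50 counts in each E2F + CycD library, were in genes that control wings barely expressed. *PolE2* (FBgn0035644; 3L, 5895691 to 5897435) had 243 and 275 counts in E2F + CycD wings and 0 in both control libraries, which makes it at least 40.5-fold higher against the floor of 3 counts per library. *Ts* (FBgn0024920; 2L, 2968293 to 2969638), which makes the thymidine nucleotide for DNA, had 385 and 361 counts, against 0 and 1 in control wings. *BthD* (FBgn0030501; X, 13612131 to 13613228) had 393 and 550 counts, against 1 and 1. These low control counts set the precision, and the *Ts* ratio of 358 had a 95% counting interval of 64.1 to 14161, while the *BthD* ratio of 226 had one of 62.5 to 1871. Such intervals cover counting error only. *RhoGEF4* (FBgn0035761; 3L, 7321099 to 7323411) had 638 and 497 counts, against 1 and 3 in control wings. Its log2 fold change was 7.04 ± 0.29 (adjusted p = 5.2e-08). *RhoGEF4* stood at 36.4 and 31.9 CPM in E2F + CycD wings, against 1.05 and 0.913 CPM in E2F wings, a difference of 5.10 (adjusted p = 1.7e-07). *wntD*, which encodes a secreted Wnt family inhibitor of Toll signaling, had 115 and 106 counts, against 0 and 1. *CG13744* had 1070 and 1322 counts, against 3 and 3, *CG5399* 149 and 241, against 0 and 1, *msb1l* 475 and 404, against 1 and 4, *CG7126* 73 and 56, against 0 and 0, and *CG7201* 2366 and 1652, against 5 and 13.

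**Figure D1:**
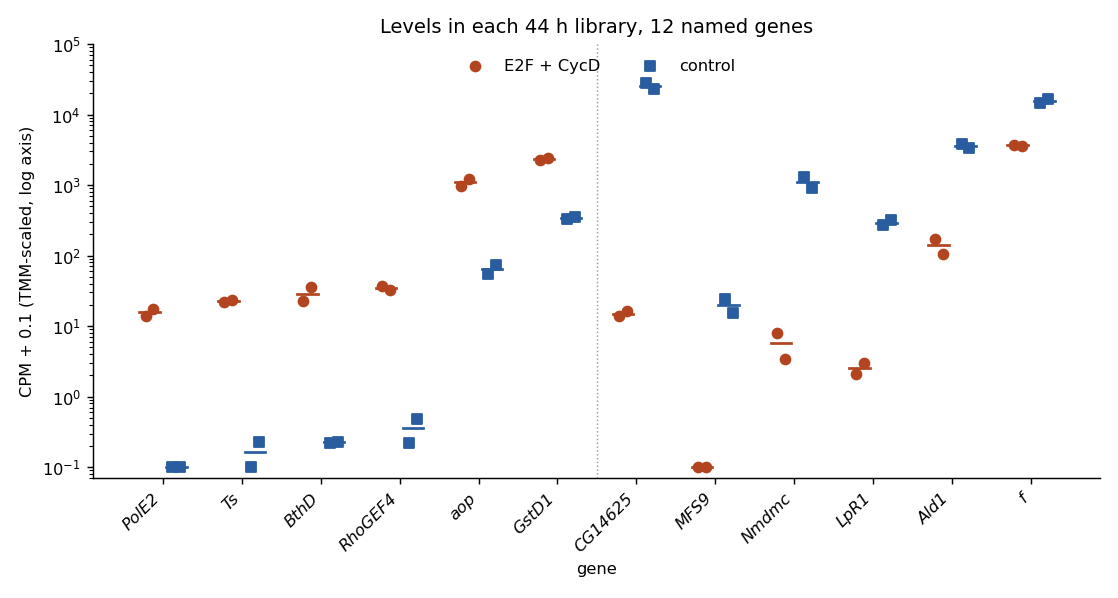
Levels in CPM (log axis, 0.1 added) of 12 genes in each 44 h library. E2F + CycD wings are circles on the left, control wings are squares on the right, and bars are group means. The *PolE2*, *Ts* and *BthD* libraries of control wings lie at or below 1 count, and MFS9 is at 0 in both E2F + CycD libraries. No pair of groups overlaps, which was a condition for naming these genes.

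The 10 strongest decreases included genes at high and at low levels in control wings. *CG14625* (FBgn0040358; X, 1199546 to 1203157) held 13.7 and 16.2 CPM in E2F + CycD wings, against 27806 and 23089 CPM in control wings, the steepest fall among genes with detected counts in both groups at −10.73 ± 0.79 (adjusted p = 9.8e-07). *CG11381*, the neighbouring gene on the same strand (X, 1203777 to 1205433), had 0 and 1 counts, against 251 and 360. *CG6280* had 10.4 and 16.5 CPM, against 21174 and 10521 CPM. *MFS9*, a transporter of the major facilitator family, had 0 counts in both E2F + CycD libraries, against 198 and 116 in control wings, at least 102.1-fold lower. *sona*, which encodes a secreted ADAMTS metalloprotease, had 4.23 and 6.41 CPM, against 3025 and 2359 CPM, a log2 fold change of −8.99 ± 0.65 (adjusted p = 9.2e-07). *CG15322* had 9.08 and 10.5 CPM, against 8950 and 2963 CPM. *CG17127* had 3.09 and 1.48 CPM, against 1581 and 847 CPM. *CG14892* had 0 and 5 counts, against 1129 and 198, so the control libraries themselves differed widely. *CG43341* fell by 8.86, but all of its exon sequence lies opposite exons of another gene, and the strand setting of the counting is not given in the sources used here. *Cpr65Ea*, whose name marks a cuticle protein although it is not on the study's lists, had 0 counts in both E2F + CycD libraries, against 75 and 58, at least 43.4-fold lower.

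Several of the most abundant transcripts of the differentiating wing were among the fallen genes. *CG14770* had 53 and 51 CPM in E2F + CycD wings, against 22813 and 14306 CPM in control wings. *CG12964* had 224 and 275 CPM, against 11376 and 9727 CPM, and *CG14257* had 110 and 91.3 CPM, against 7449 and 8287 CPM. *Cda5*, a chitin deacetylase-like gene, had 842 and 948 CPM, against 8698 and 7611 CPM. In each of these 4 genes the E2F + CycD libraries lay far below both control libraries. *CG15080* fell by 2.91 and *CG44085* by 3.11. In the other direction, *CG43366* stood at 3527 and 4872 CPM in E2F + CycD wings, against 106 and 190 CPM in control wings. *ImpE1*, an ecdysone-inducible gene outside the study's list, had 2609 and 2508 CPM, against 180 and 733 CPM, and *mub*, a KH-domain RNA-binding protein gene, had 2130 and 2294 CPM, against 803 and 1250 CPM. Of the abundant IDs with no name in the annotation, FBgn0029128 had 1925 and 2158 CPM, against 44.5 and 71.0 CPM, and FBgn0037645 had 1644 and 1936 CPM, against 14.8 and 87.9 CPM.

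Nuclear transport had the largest share of risen genes among the 34 functional lists. After removal of genes on the study's lists, 22 of 37 tested nuclear pore and transport genes rose and 0 fell, against 13.1% and 16.1% of all genes, and the median log2 fold change was 1.10, against −0.08. *Rcc1* (FBgn0002638; 3L, 5930262 to 5932773), which loads Ran with GTP on chromatin, had 61.9 and 68.4 CPM in E2F + CycD wings, against 2.81 and 5.19 CPM in control wings (log2 fold change 4.03 ± 0.21, adjusted p = 1.4e-07). *RanGAP*, which returns Ran to its GDP form, had 12.3 and 19.2 CPM, against 1.95 and 2.34 CPM (2.87 ± 0.27, adjusted p = 5.3e-06). *Nup43*, a scaffold nucleoporin, had 9.83 and 10.1 CPM, against 1.47 and 2.34 CPM. *Rcc1*, *RanGAP* and *Nup43* were named on condition that their groups did not overlap, so their separation from control follows from that choice. *Ran* itself differed by 0.91 ± 0.15 and *Nup153*, of the nuclear basket, by 0.32 ± 0.13, both under the fold threshold. Promoters of 13.51% of the list held an E2F word and 18.92% a DRE word.

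Nucleotide synthesis genes moved in both directions. Of 28 tested genes 10 rose and 4 fell, with a median of 0.50. *RnrS*, the small subunit of ribonucleotide reductase, had 37.0 and 44.8 CPM in E2F + CycD wings, against 0.489 and 0.909 CPM in control wings (5.87 ± 0.37, adjusted p = 4.1e-07). *dnk*, the deoxyribonucleoside kinase, had 48.5 and 51.2 CPM, against 1.71 and 1.95 CPM (4.76 ± 0.27, adjusted p = 2.1e-07). *dUTPase*, which clears dUTP, rose by 2.94, and the purine synthesis genes *Paics* and *Gart* rose by 2.11 and 2.03. The steps that feed deoxynucleotides into DNA were thus among the risen members. Of the 4 fallen members, *Nmdmc*, a mitochondrial folate dehydrogenase, had 7.83 and 3.33 CPM, against 1282 and 913 CPM (−7.61 ± 0.62, adjusted p = 2e-06). *ras*, the IMP dehydrogenase of guanine nucleotide synthesis, had 29.7 and 28.5 CPM, against 170 and 168 CPM (−2.54 ± 0.16, adjusted p = 4.2e-07). *Prat*, the first enzyme of purine synthesis, fell by 1.73 and *Pfas*, a later one, by 1.42, so members of the same purine pathway went both ways. *awd*, the nucleoside diphosphate kinase, differed by 0.92 ± 0.18, under the threshold.

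Chromatin genes rose in 14 of 55 cases and fell in 1, with a median of 0.58. The gene of heterochromatin protein HP1a (FBgn0003607) had 138 and 166 CPM in E2F + CycD wings, against 22.1 and 21.3 CPM in control wings (2.81 ± 0.16, adjusted p = 1.8e-07). *asf1*, a histone chaperone of replicating chromatin, had 60.7 and 74.1 CPM, against 11.2 and 8.18 CPM (2.79 ± 0.17, adjusted p = 3.4e-07). *Chrac-14*, a histone-fold subunit of a remodeling complex, had 9.43 and 7.89 CPM, against 1.22 and 1.04 CPM. These factors serve the assembly and silencing of chromatin. *gpp*, the H3K79 methyltransferase, was the single member called lower, by −1.18 ± 0.16. *osa*, of a remodeling complex, and *trx*, the Trithorax methyltransferase, differed by 0.28 and −0.20, and for *osa* the libraries of both groups overlapped.

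Genes known mainly from the germline were also higher. In the piRNA pathway and germline list 12 of 25 tested genes rose and 1 fell, with a median of 1.06, and 7 of 14 genes of meiosis, egg and testis rose with 0 lower, with a median of 1.35. A filter on low counts left out 7 of the 32 germline genes and 18 of the 32 meiosis genes, so these are shares of the genes that the wing expressed in some group. A gene near 0 in 44 h control wings could pass the filter only through another group. It could then hardly be called lower, so the filter partly sets these shares and medians. *piwi*, the nuclear Argonaute of the pathway, held 1.20 and 1.80 CPM in E2F + CycD wings and 0 in both control libraries. *vret*, a Tudor-domain protein, had 120 and 75 counts, against 1 and 3 (ratio 23.4, counting interval 8.99 to 86.7), and *shu*, a cochaperone in piRNA loading, had 58 and 53, against 1 and 1 (ratio 26.6, interval 7.20 to 223). Control wings were thus near the floor for these genes. *qin*, a Tudor protein of the ping-pong cycle, had 4.57 and 7.37 CPM, against 0.611 and 0.779 CPM (3.09 ± 0.41, adjusted p = 7.1e-05). *rhi*, an HP1 relative at piRNA clusters, had 5.6 and 7.57 CPM, against 15.9 and 16.1 CPM (−1.28 ± 0.24, adjusted p = 0.001). *tud* and *mei-P26*, the members with the highest levels, differed by −0.46 and 0.09. Without control replicate 1 the risen count of this list dropped to 7. Among the meiosis genes, *wisp*, a cytoplasmic poly(A) polymerase of the egg, had 26.5 and 36.5 CPM, against 1.47 and 1.56 CPM (4.37 ± 0.33, adjusted p = 1.1e-06). *bol*, an RNA-binding protein of male meiosis, had 183 and 273 CPM, against 18.2 and 17.4 CPM (3.68 ± 0.27, adjusted p = 9.8e-07). All libraries were labelled as female.

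DNA repair genes outside the cell cycle list rose in 5 of 20 cases, with 0 lower and a median of 0.40. *mei-41*, the fly ATR kinase, had 14.5 and 14.8 CPM in E2F + CycD wings, against 1.59 and 2.73 CPM in control wings (2.77 ± 0.28, adjusted p = 8.6e-06). *Fancd2*, of interstrand crosslink repair, had 8.0 and 6.99 CPM, against 0.855 and 0.779 CPM (3.18 ± 0.23, adjusted p = 9.4e-07). Excision repair was represented by *Ercc1*, which rose by 1.64, and *Xpc*, which rose by 1.05. *grp*, the fly Chk1 kinase, differed by −0.95 ± 0.20, short of the threshold. Apoptosis genes had 4 of 20 higher (20%) and 3 lower (15%), near the 13.1% and 16.1% of all genes. Not every called member is named here. The pro-death genes *egr*, a TNF ligand, *rpr*, an inhibitor of IAP proteins, and *Dcp-1*, an effector caspase, rose by 2.28, 2.06 and 1.49. *Diap1*, the main caspase inhibitor, had 295 and 266 CPM, against 821 and 781 CPM, and fell by 1.51 ± 0.14 (adjusted p = 3.6e-06), and *Buffy*, a Bcl-2 family gene, fell by 1.76. *hid*, another IAP antagonist, differed by 0.29 ± 0.17 and was not called.

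Genes of RNA processing and of ribosome assembly were mostly uncalled or higher. In the spliceosome and snRNP list 13 of 33 tested genes rose and 0 fell, with a median of 0.84. *SmB*, a core snRNP protein, had 18.8 and 16.9 CPM in E2F + CycD wings, against 2.08 and 3.51 CPM in control wings (2.68 ± 0.22, adjusted p = 2.1e-06), and *Gem2*, of the complex that assembles snRNPs, rose by 2.31. *LSm7* rose by 2.58, although 40.7% of its exon sequence lies opposite another gene. Ribosome biogenesis genes rose in 14 of 42 cases with 0 lower and a median of 0.64. *Gar1*, of the pseudouridylation snoRNPs, had 12.3 and 19.2 CPM, against 5.74 and 5.19 CPM (1.52 ± 0.28, adjusted p = 0.00075), *Rtc1*, named for an RNA cyclase fold, rose by 1.49, and *l(1)G0020* rose by 2.20. RNA polymerase I and III genes rose in 3 of 18 cases (16.67%), near the 13.1% of all genes. The largest rise was in *TAF1B*, a polymerase I initiation factor, at 2.20 ± 0.30. The risen count of this list moved in both directions when single libraries were left out. Mitochondrial ribosomal proteins rose in 19 of 70 cases and fell in 1, with a median of 0.65. *mRpL39* had 22.1 and 25.1 CPM, against 5.01 and 5.19 CPM (2.21 ± 0.17, adjusted p = 1.2e-06).

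Cytosolic ribosomal proteins are the structural parts of the translating ribosome. Of 80 tested genes 16 (20%) were called lower, against 16.1% of all genes, 1 was higher and 63 were not called, while 78 had a negative log2 fold change and the median was −0.83. *RpLP2*, an acidic stalk protein, had 263 and 245 CPM in E2F + CycD wings, against 692 and 586 CPM in control wings (−1.33 ± 0.15, adjusted p = 2e-05). The one gene called higher was *RpLP0-like*, whose yeast counterpart is an assembly factor, at 2.28 ± 0.24. The count of 16 was 9 without control replicate 1. Scaled by library totals the median of this list turned to 0.16 with 0 called lower, so its direction holds only relative to the typical gene. Translation factors fell in 3 of 44 cases (6.82%), below the 16.1% of all genes, with 0 higher. Their median of −0.28 turned to 0.70 under library totals. *eIF3f1*, a subunit of initiation factor eIF3, fell by 1.29 and *eIF3j* by 1.73. None of the 19 cytosolic aminoacyl-tRNA synthetase genes was called in edgeR (median −0.04), and *AlaRS* differed by −0.39 ± 0.14 (adjusted p = 0.034). At an unadjusted p under 0.05, 5 of them were higher and 3 lower, and DESeq2 called 0.

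Where a list had 0 genes called in a direction against control wings at 44 h, DESeq2 also called 0, and between 0 and 5 genes per list reached an unadjusted p under 0.05 in that direction.

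**Figure D2:**
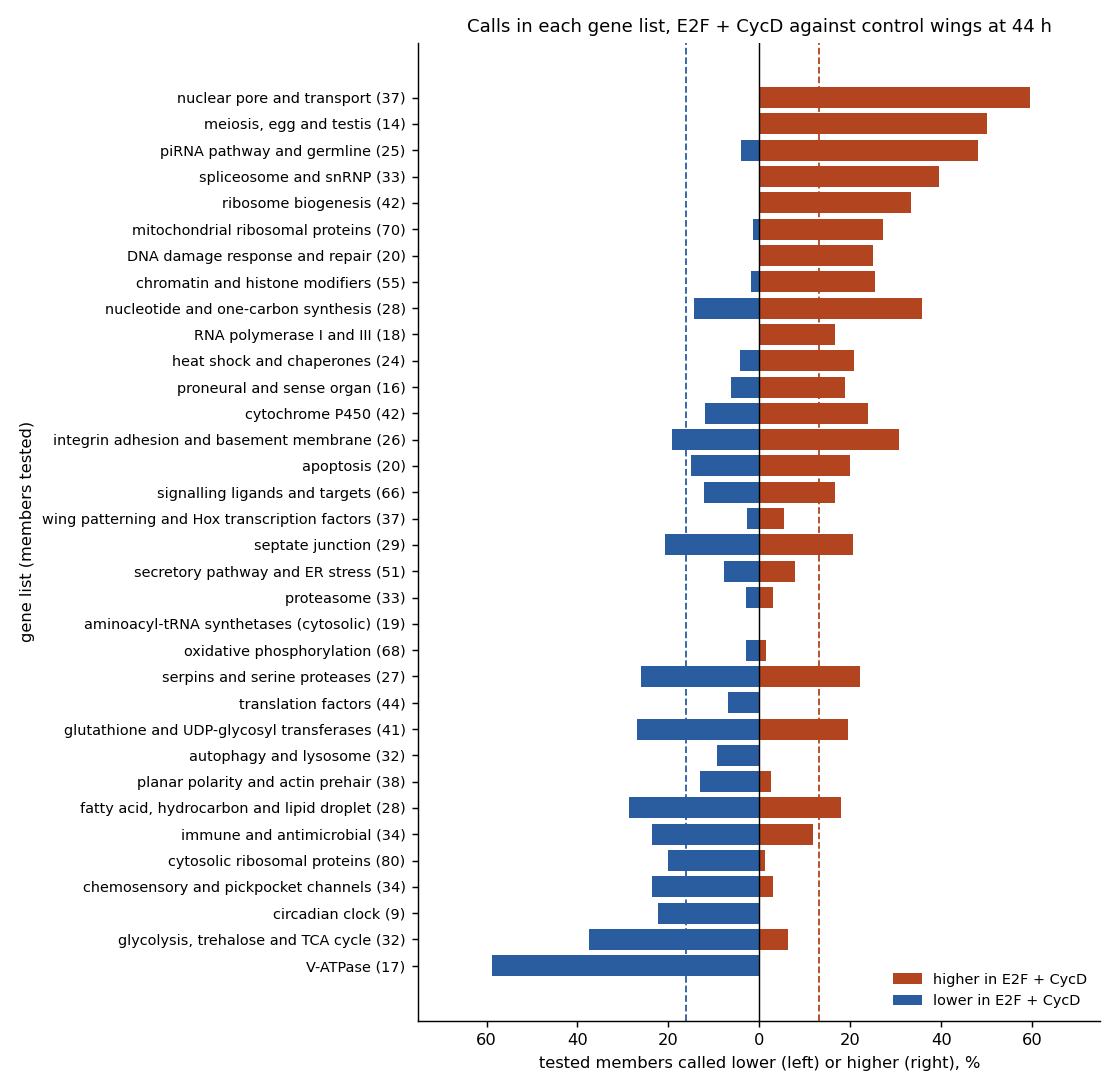
Share of tested genes called higher (right of 0) and called lower (left of 0) in E2F + CycD against control wings at 44 h, in percent, for 34 functional lists without genes of the study's own lists. Dashed lines mark the 13.1% higher and 16.1% lower of all genes outside those lists. Nuclear pore genes reach furthest right and V-ATPase genes furthest left.

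Genes of sugar breakdown were lower in many cases. In the glycolysis, trehalose and TCA cycle list 12 of 32 tested genes fell and 2 rose, with a median of −0.53. *Ald1* (FBgn0000064; 3R, 26254069 to 26261591), the glycolytic aldolase, had 174 and 104 CPM in E2F + CycD wings, against 3858 and 3378 CPM in control wings (−4.70 ± 0.33, adjusted p = 7.7e-07). *Ldh*, which makes lactate, had 14.5 and 11.1 CPM, against 378 and 270 CPM (−4.66 ± 0.27, adjusted p = 2.4e-07). *Gapdh1* had 43.8 and 29.2 CPM, against 331 and 461 CPM (−3.44 ± 0.27, adjusted p = 1.6e-06), and *Pgi*, the phosphoglucose isomerase, had 115 and 70.7 CPM, against 459 and 631 CPM. The 2 risen members lay outside the glycolytic steps and were *UGP*, which makes UDP-glucose, at 2.12 ± 0.25, and *kdn*, citrate synthase, at 1.44 ± 0.22. Scaled by library totals the list median turned to 0.46, with 5 called lower and 7 higher. The oxidative phosphorylation list had 1 of 68 genes higher and 2 lower (0 without E2F + CycD replicate 1), with a median of −0.36, which turned to 0.63 under library totals.

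The V-ATPase is the proton pump of acidic compartments. Of its 17 tested subunit genes 10 fell, 7 were not called and 0 rose, and all 17 had a negative log2 fold change, with a median of −1.30. *Vha55* had 193 and 179 CPM in E2F + CycD wings, against 523 and 500 CPM in control wings (−1.46 ± 0.13, adjusted p = 3.1e-06), and *Vha14-1* had 14.6 and 16.8 CPM, against 59.7 and 51.4 CPM (−1.82 ± 0.18, adjusted p = 8.3e-06). *Vha16-1*, for a subunit of the membrane ring, differed by −0.79 and stayed under the threshold. Scaled by library totals the median was −0.32 with 0 called. Autophagy and lysosome genes fell in 3 of 32 cases (9.38%), below the 16.1% of all genes, with 0 higher. The 3 were *Atg1*, the initiating kinase, at −2.37 ± 0.23, *Atg8a*, the membrane tag, at −1.52 ± 0.13, and *Atg4a*, its protease, at −1.20 ± 0.13. Their list median of −0.53 turned to 0.46 under library totals.

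Lipid genes moved in both directions. In this list 5 of 28 rose and 8 fell, with a median of −0.45, which turned to 0.52 under library totals. *mdy*, the fly DGAT1 that makes triglyceride, had 26.5 and 27.8 CPM in E2F + CycD wings, against 2.20 and 3.12 CPM in control wings (3.35 ± 0.39, adjusted p = 3e-05). *bmm*, the main triglyceride lipase, had 22.1 and 23.1 CPM, against 290.5 and 309 CPM (−3.73 ± 0.25, adjusted p = 5.4e-07). *LpR1* (FBgn0066101; 3R, 25741348 to 25763105), a lipophorin receptor for lipid uptake, had 2.0 and 2.89 CPM, against 270.3 and 316 CPM (−6.91 ± 0.34, adjusted p = 8.7e-08). *Acsl*, which activates long fatty acids, rose by 1.13 and *Hmgs*, of the mevalonate pathway, by 1.17. The fatty acid elongases went in opposite directions, with *Elovl7* at 3.21 ± 0.43 and *Baldspot* at −2.41 ± 0.23.

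Detoxification families changed in both directions. Cytochrome P450 genes rose in 10 and fell in 5 of 42 tested, of 83 outside the study's lists, but the risen count was 6 without control replicate 1, control replicate 2 or E2F + CycD replicate 1, and the fallen count was 1 without control replicate 1 and 2 without E2F + CycD replicate 2. *Cyp18a1*, which inactivates ecdysone, had 147 and 96.1 CPM in E2F + CycD wings, against 28.0 and 27.1 CPM in control wings (2.14 ± 0.30, adjusted p = 0.0001). *Cyp4s3* had 6.11 and 9.30 CPM, against 79.4 and 84.1 CPM (−3.41 ± 0.26, adjusted p = 1.3e-06). Glutathione and UDP-glycosyl transferases rose in 8 and fell in 11 of 41. *GstD1* (FBgn0001149; 3R, 12367817 to 12369268) stood at 2243 and 2383 CPM, against 330 and 352 CPM (2.76 ± 0.18, adjusted p = 4.2e-07), and its neighbour *GstD9* had 21.1 and 24.3 CPM, against 2.20 and 4.67 CPM. The D-class genes *GstD10*, *GstD5* and *GstD3* were also called higher, while *GstE6*, *GstT4* and *Ugt36D1* fell by 2.39, 2.20 and 2.99. Members of these families are similar in sequence, and how reads shared by copies were counted is not given in the sources used here.

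Secretion, stress and immune genes were followed next. The secretory list rose in 4 and fell in 4 of 51, with a median of −0.10 that turned to 0.89 under library totals, and 2 fell without control replicate 1 or control replicate 2. *Hsc70-3*, the ER chaperone BiP, had 1186 and 1130 CPM in E2F + CycD wings, against 490.1 and 463 CPM in control wings (1.28 ± 0.20, adjusted p = 0.00029), and *KdelR*, the ER retrieval receptor, rose by 1.08. The Golgi genes *GM130* and *Syx5* fell by 1.33 and 1.14. Heat shock and chaperone genes rose in 5 and fell in 1 of 24, among them *CCT6*, a chaperonin subunit, at 1.41 ± 0.19, and *Hsp70Bb*, which has near-identical copies, at 1.42 ± 0.27. Proteasome genes had 1 of 33 higher and 1 lower. Immune genes fell in 8 (23.53%) and rose in 4 (11.76%) of 34 tested, of 74 listed, and 1 rose without control replicate 1. The fallen genes included the NF-kB genes *Rel* and *Dif*, while *dl*, another NF-kB gene on the list, is not reported here. *Rel*, of the Imd pathway, had 48.9 and 38.7 CPM, against 331 and 302 CPM (−2.85 ± 0.19, adjusted p = 5.1e-07), and *Dif*, of the Toll pathway, had 7.14 and 5.0 CPM, against 46.5 and 34.7 CPM (−2.74 ± 0.27, adjusted p = 8.2e-06). *SPE*, the protease that activates the Toll ligand, rose by 3.01 ± 0.45, while *Tl*, the receptor, differed by −0.05 ± 0.17.

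Extracellular proteases and their inhibitors held large changes in both directions, with 6 higher and 7 lower of 27 tested. Without control replicate 2 the counts were 10 and 4, and without E2F + CycD replicate 2 the lower count was also 4. *Np*, a transmembrane protease of the body wall and wing, had 2449 and 3185 CPM in E2F + CycD wings, against 172 and 320 CPM in control wings (3.52 ± 0.31, adjusted p = 3.1e-06). *ea*, the Easter protease, had 12.3 and 12.1 CPM, against 0.489 and 0.519 CPM (4.57 ± 0.31, adjusted p = 6.1e-07). *Spn100A*, a serpin, had 986 and 1036 CPM, against 152 and 290.1 CPM. *Spn88Ea*, another serpin, went the opposite way, at 118 and 94.6 CPM, against 1186 and 1059 CPM (−3.40 ± 0.24, adjusted p = 8.2e-07), and *Sb*, the Stubble protease of appendage shaping, fell by 1.86.

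Adhesion and junction genes likewise moved both ways. Integrin and basement membrane genes rose in 8 and fell in 5 of 26, and 3 fell without control replicate 2 or E2F + CycD replicate 2. *if*, the alpha-PS2 integrin that holds the wing surfaces together, had 227 and 256 CPM in E2F + CycD wings, against 36.9 and 28.0 CPM in control wings (2.89 ± 0.31, adjusted p = 1.3e-05), and *by*, the integrin-linked tensin, had 272 and 267 CPM, against 46.7 and 76.6 CPM (2.13 ± 0.24, adjusted p = 2.1e-05). *mys*, the beta integrin, differed by 0.09 ± 0.15 and its groups overlapped. *Mmp2*, a matrix metalloprotease, fell by 2.10 ± 0.17, and *Timp*, the metalloprotease inhibitor, rose by 1.95 ± 0.33. Septate junction genes rose in 6 and fell in 6 of 29, and 3 fell without control replicate 1. *nrv1* and *nrv2*, beta subunits of the sodium pump, rose by 1.86 and 1.57, while *wun*, a lipid phosphatase, fell by 2.31.

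In the list of planar polarity and actin genes of the wing hair 1 of 38 was higher and 5 (13.16%) were lower, below the 16.1% of all genes. Under library totals 19 were higher and 3 lower (median 0.88, against −0.11), and 4 were higher without control replicate 2. *f*, the Forked actin crosslinker (FBgn0262111; X, 17232942 to 17280964), had 3728 and 3606 CPM in E2F + CycD wings, against 14714 and 16761 CPM in control wings (−2.10 ± 0.23, adjusted p = 1.7e-05). *sn*, the fly fascin, had 998 and 1029 CPM, against 3609 and 4108 CPM, and *WASp*, an activator of actin branching, had 73.1 and 68.9 CPM, against 591 and 824 CPM (−3.32 ± 0.28, adjusted p = 2.5e-06). *mwh*, which limits the wing cell to a single hair, fell by 2.01, and *stan*, the core polarity cadherin, fell by 1.38. *in*, the polarity effector Inturned, was the member called higher, at 39.6 and 33.5 CPM, against 10 and 9.35 CPM (1.91 ± 0.19, adjusted p = 6.6e-06).

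Signaling genes rose in 11 and fell in 8 of 66, near the background in both directions. *aop* (FBgn0000097; 2L, 2156484 to 2178754), the repressor Yan of the EGFR pathway, had 958 and 1233 CPM in E2F + CycD wings, against 54.6 and 74.3 CPM in control wings (4.09 ± 0.33, adjusted p = 1.8e-06). *fz2*, a Wingless receptor, had 699 and 530.0 CPM, against 154 and 120 CPM (2.16 ± 0.21, adjusted p = 7.5e-06). *ru*, the protease that releases EGFR ligands, fell by 3.02 ± 0.23, *wts*, the Hippo pathway kinase, by 1.83 ± 0.18 and *sog*, a BMP antagonist, by 1.80 ± 0.21. Patterning transcription factors were mostly uncalled, with 2 of 37 higher and 1 lower, and *nub* differed by −0.45 ± 0.13. Proneural and sense organ genes had 3 of 16 higher, led by the forkhead gene *jumu* at 2.42 ± 0.33, and 1 lower. Of 9 clock genes, *Pdp1* and *cwo* fell, by 3.86 and 1.51, and *Pdp1* had 10.9 and 11.5 CPM in E2F + CycD wings, against 275 and 49.9 CPM in control wings, which differed widely between themselves. Chemosensory genes were mostly filtered out, with 34 of 268 tested, of which 8 fell and 1 rose. *Obp73a*, an odorant-binding protein gene, had 47.9 and 22.3 CPM, against 3030 and 2686 CPM (−6.34 ± 0.67, adjusted p = 1.2e-05), and the receptor gene *Ir56b* had 1 and 8 counts, against 423 and 279.

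E2F wings of the same age shared many of the changes. Against control wings they had 693 (57.75%) of the 1200 risen genes called higher and 774 (52.62%) of the 1471 fallen genes called lower. Over all 9164 genes outside the 3 lists the shares were 10.88% and 10.27%. Both comparisons use the same control libraries, which favours shared calls. E2F + CycD wings differed from E2F wings in 455 genes higher (4.72%) and 664 lower (6.89%), and outside the 3 lists in 4.2% higher and 6.37% lower. These values share the E2F + CycD libraries with the comparison above, and the transgene levels differed as well, with *E2f1* and *Dp* lower in E2F + CycD wings. Ribosome biogenesis was the list with the largest share of higher genes, with 17 of 42 higher and 0 lower (median 0.78). RNA polymerase I and III genes had 7 of 18 higher and 0 lower (median 0.82). Against control wings, E2F wings themselves had medians below 0 in these lists, at −0.23 and −0.25. *l(1)G0020* had a log2 difference of 3.42 (adjusted p = 5.6e-05), *Gar1* 1.88 and *Polr1E*, a polymerase I subunit, 1.47. The piRNA list had 7 of 25 higher and 1 lower. Nuclear pore genes had 0 higher and 1 lower of 37, and *Rcc1* differed by −0.08. Glycolysis genes had 5 of 32 lower and 0 higher, with *Ald1* at −1.87, *Ldh* at −1.75 and *Gapdh1* at −1.66, and serpin and protease genes had 7 of 27 lower and 0 higher. Without E2F + CycD replicate 2 the lower total was 418.

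At 24 h, E2F + CycD wings differed from control wings in 546 genes higher (5.67%) and 188 lower (1.95%), and outside the lists 4.0% of genes rose and 1.75% fell. These 4 libraries are separate from those at 44 h. Of the 1200 genes risen at 44 h, 255 (21.25%) were also called higher at 24 h and 18 called lower. Of the 1471 fallen at 44 h, 87 (5.91%) were also called lower at 24 h and 9 higher. The difference between the effects was itself tested as an interaction, which called 1702 genes (17.7%), 769 (7.98%) toward higher and 933 (9.68%) toward lower at 44 h, or 7.26% and 9.55% outside the lists, and 1242 toward higher without control replicate 2 of 44 h. Of the nuclear transport genes 22 of 37 were higher at 24 h too (median 1.12), and 1 passed the interaction test in each direction. Chromatin genes had 10 of 55 higher at 24 h and 2 interaction calls. Glycolysis differed, with 1 of 32 genes called at 24 h, *Ald1* at −1.21, and 10 interaction calls toward lower and 1 toward higher. The V-ATPase list had 0 called at 24 h (median −0.32; 7 lower and 1 higher at an unadjusted p under 0.05 and 0 called by DESeq2) and 5 of 17 interaction calls toward lower, and the secretory list had 6 of 51 toward higher. *aop* had a 24 h difference of −0.32 and an interaction of 4.41 (adjusted p = 6.5e-05), and *GstD1* 0.15 and 2.61 (adjusted p = 5.7e-05). Differences from control were larger at 44 h for the transgenes as well, with interactions of 2.42 for *CycD*, 1.43 for *Cdk4* and 2.60 for *E2f1*. For *E2f1* both sides changed. E2F + CycD wings held 1338 and 908 CPM at 24 h, against 1589 and 1976 CPM at 44 h. Control wings held 432 and 473 CPM at 24 h, against 104 and 133 CPM at 44 h.

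**Figure D3:**
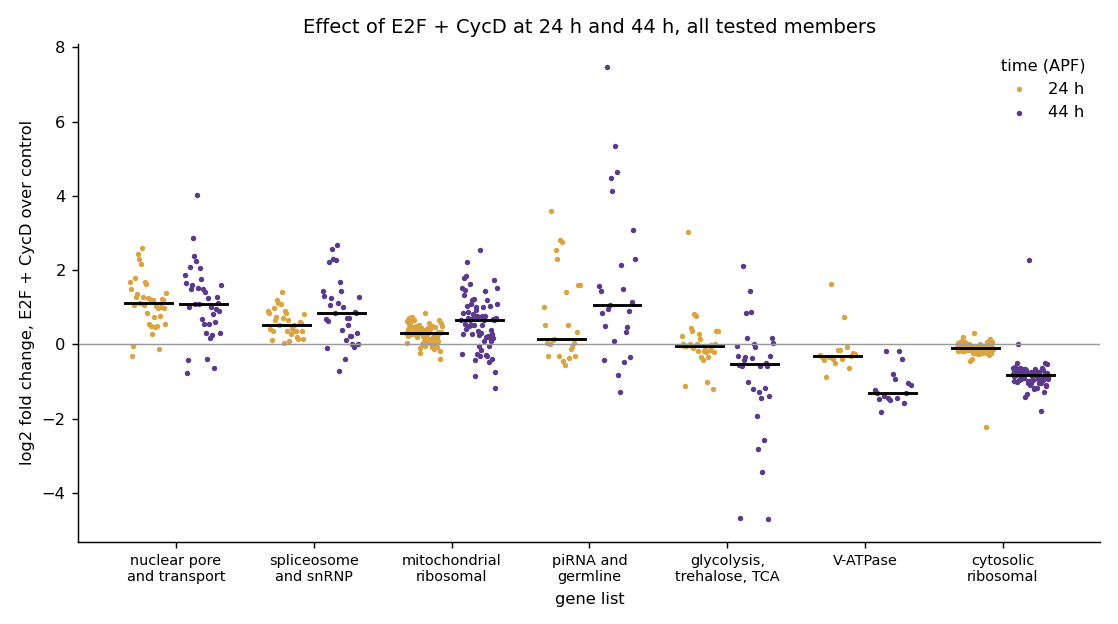
Log2 fold change of E2F + CycD against control wings at 24 h and at 44 h for the tested genes of 7 lists, each dot a gene and each black line the list median. Nuclear pore genes have medians of 1.12 and 1.10 at the 2 ages, and V-ATPase genes of −0.32 and −1.30.

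Wild-type wings gave a measure of change over these hours from separate libraries, 2 at 44 h and 2 at 36 h, fitted with the other stages. Genotype differed from that of the transgenic wings, and the heat shock and temperature shift are described for transgenic animals only. At 44 h against 36 h, 932 of 8669 tested genes rose (10.8%) and 824 fell (9.51%), or 10.2% and 9.46% outside the 3 lists. Of the genes risen in E2F + CycD wings, 1099 were tested in wild type, of which 286 (26.02%) fell between 36 h and 44 h and 30 (2.73%) rose, with a median of −0.35. Of the fallen genes 1286 were tested, of which 473 (36.8%) rose in wild type and 66 fell, with a median of 0.75. Over the 7952 genes tested in both, the wild-type shares were 10.27% higher and 9.43% lower with a median of 0.07. Both sets were also split by their call at 24 h, a division given without a test. Of the 240 tested genes that rose at both ages, 10.4% fell in wild type (median 0.10), against 30.4% of the 859 risen at 44 h but not called higher at 24 h (median −0.49). The fallen genes ran the other way, since 66.27% of the 83 that fell at both ages rose in wild type (median 2.46), against 34.75% of the 1203 not called lower at 24 h (median 0.71). Single genes spanned the pattern. *aop* had 167 and 153 counts in wild-type wings at 44 h, against 4071 and 5105 at 36 h, and *GstD1* had 2916 and 3248, against 6881 and 6286. *Ald1* went the opposite way, with 8831 and 10778 counts at 44 h, against 510 and 753 at 36 h, and *CG14625* had 5507 and 12892, against 2 and 9. Glycolysis genes rose in wild type in 16 of 31 cases and fell in 1 (median 1.19), V-ATPase genes rose in 6 of 16 (median 0.77), and nuclear pore genes rose in 3 of 37. Across 8406 genes the log2 fold changes of both comparisons had a Pearson r of −0.431, given as a description, since genes within libraries are not independent.

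**Figure D4:**
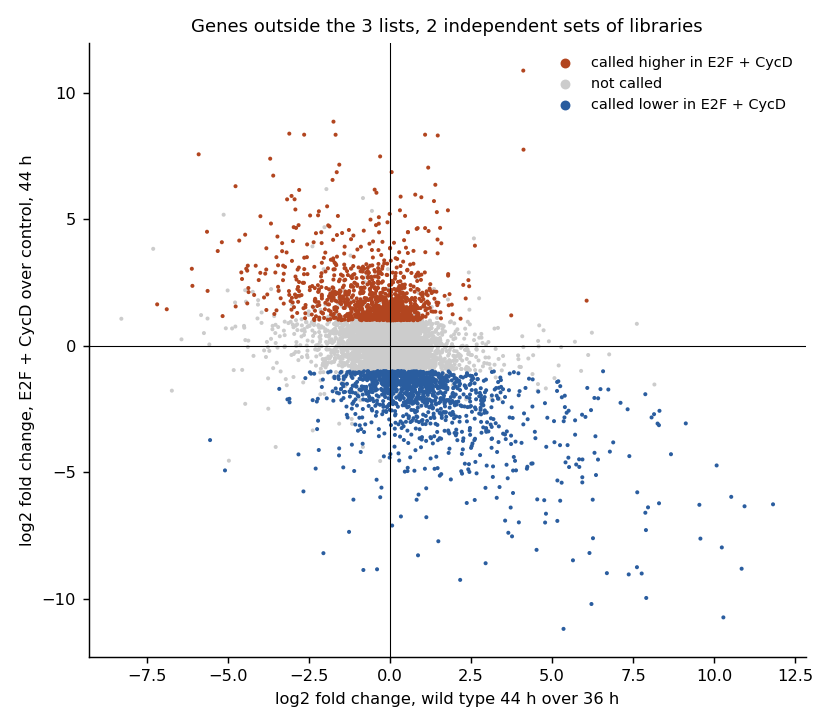
Log2 fold change of E2F + CycD against control wings at 44 h (one axis) and of wild-type wings at 44 h against 36 h (other axis) for genes outside the study's lists, each dot a gene. Of the genes called lower in E2F + CycD wings, 36.8% rose in wild type, and of those called higher, 26.02% fell.

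Markers of the wing and of other cell types were followed because fewer cells of a type and less RNA per cell cannot be told apart in bulk wings. None of the 8 wing epithelium markers was called in edgeR (0 by DESeq2, and 2 higher and 4 lower at an unadjusted p under 0.05), and their summed level was 3692 and 3460 CPM in E2F + CycD wings, against 3854 and 4641 CPM in control wings. Muscle markers had 10 of 18 lower and 0 higher, with a median of −1.77 that was −0.79 with 3 called lower under library totals, and their sum was 1981 and 1746 CPM, against 1826 and 3417 CPM, so the sums overlapped. *TpnC4* and *twi* were each at 0 in 1 library, and the count was 5 without E2F + CycD replicate 2. In wild type 11 of the 18 muscle markers rose between 36 h and 44 h. Neuron markers had 5 of 11 lower and 0 higher (median −0.98, and −0.02 with 0 called under library totals), with sums of 611 and 618 CPM, against 1263 and 1391 CPM, and 3 were lower without E2F + CycD replicate 1. *ChAT* was at 0 in 1 control library and *Gad1* in both. Glia markers had 2 of 8 higher and 1 lower, with sums of 442 and 395 CPM, against 212 and 248 CPM, and hemocyte markers 2 of 8 lower (1 without control replicate 2 or E2F + CycD replicate 2), with sums of 97.2 and 73.6 CPM, against 122 and 153 CPM. Fat body markers had 3 of 12 lower, the yolk protein genes *Yp1*, *Yp2* and *Yp3*, with sums of 405 and 333 CPM, against 466 and 488 CPM, and the 2 trachea markers were not called. Of 2 tested markers of male tissue 1 was lower, with sums of 23.2 and 21.8 CPM, against 22 and 25.3 CPM. The part of other cell types in the decreases above was not tested.

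**Figure D5:**
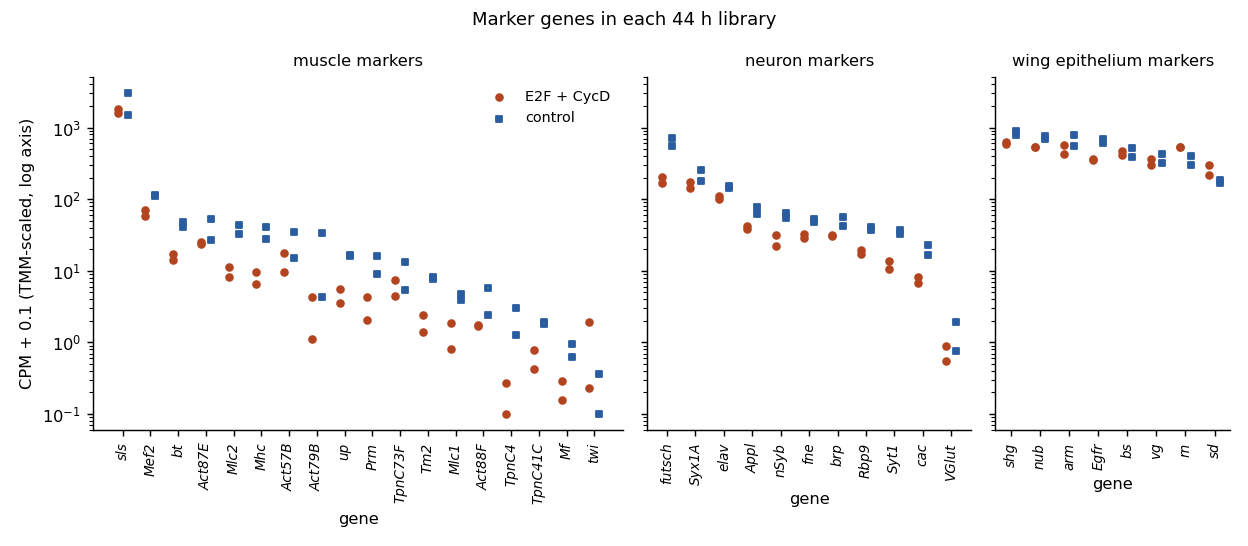
Levels in CPM (log axis, 0.1 added) of markers of muscle (18 genes), neurons (11) and wing epithelium (8) in each 44 h library. E2F + CycD wings are circles on the left and control wings squares on the right. The median log2 fold changes of the 3 lists are −1.77, −0.98 and −0.31.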

How the data were processed

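RNA-seq counts of *Drosophila melanogaster* pupal wings were analysed from 24 libraries, 12 transgenic and 12 wild type, while the 34 FAIRE samples were left aside. Libraries had been made from Trizol-extracted RNA with a stranded mRNA kit. The authors aligned reads to dm6 with STAR and deposited whole-number counts per gene from HTSeq, not normalized. The submitters' processing notes also name Bowtie2. The annotation release, counting mode and strand setting are not given in the sources used here. Rows that name no gene were left out of the library sizes, and in the 4 libraries compared reads that did not map uniquely were listed at 54.6% and 38.3% of the gene counts plus these rows in E2F + CycD wings, against 53.9% and 39.2% in control wings.

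Groups were taken from the labels. The main test was edgeR 4.0.16 (R 4.3.3), with filterByExpr (minimum count 10, minimum total 15), TMM scaling and a quasi-likelihood fit of the 12 transgenic libraries, without a replicate term. The same fit gave E2F + CycD against E2F wings and the 44 h effect minus the 24 h effect, and a second fit of the 12 wild-type libraries gave 44 h against 36 h. Alternatives were DESeq2 1.42.0, RLE scaling, library totals, no low-count filter (at least 1 count), only the groups compared, a replicate block, and leaving out each library. In a simulation of the 44 h comparison over 9393 genes, 198 of 200 genes changed by a log2 of 2 were called, with 3 false calls. Equal numbers were changed up and down and all other genes were held constant. The simulation therefore did not test errors under the difference in RNA composition seen in the data. Replicate numbers were not taken to pair the samples.

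Genes on the study's cell cycle (297), cuticle (162) and ecdysone (46) lists were removed by ID. The 34 functional lists and 8 marker lists, and the choice of this comparison, were made with earlier results of these data known. The text names the transgenes, up to 3 called genes per list and direction (50 or more counts in both libraries of whichever group was higher, no overlap, largest fold change first) with the members of highest level, the 10 strongest changes per direction and the 10 most abundant called genes. It also names members of the marker lists. Exceptions, named after their values were seen, are *piwi*, *dUTPase*, *Paics*, *Gart*, *Pfas*, *stan*, *GstD10*, *GstD5* and *GstD3*. A gene that the rule names is not reported here. Symbols and dm6 coordinates came from the Ensembl BDGP6 annotation, which held 17253 of the 17559 IDs, and 46 list entries matched no ID. Promoters (250 bases before to 50 after the start) were read from the RefSeq Release 6 assembly. Ratios with low counts carry 95% exact counting intervals.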

Additional observations from a re-analysis of the deposited data

Results flagged for a closer look

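The difference between the E2F + CycD effects at 44 h and at 24 h was itself tested, and 1702 genes passed it in edgeR. Among the genes named by size of change or as transgenes, the effect was larger at 44 h by a log2 difference of 7.90 for *CG13744*, 6.09 for *PolE2*, 5.29 for *CG5399*, 3.95 for *Ts*, 3.88 for *RhoGEF4* and 2.29 for *msb1l*. It was lower at 44 h by −8.04 for *CG15322*, −7.46 for *sona*, −7.44 for *CG6280*, −6.89 for *CG43341*, −5.08 for *CG17127* and −4.97 for *CG14625*. These genes were chosen by their 44 h change, and the same 44 h libraries enter the difference, so the choice favours a stronger effect at 44 h. Those with the larger increase had 44 h control counts at or near the floor of detection, so the sizes are imprecise. The transgenes also passed the test, at 2.60 for *E2f1*, 2.42 for *CycD* and 1.43 for *Cdk4*, so transgene level and age cannot be told apart in these differences. For *E2f1*, the level in control wings also fell between 24 h and 44 h. *Ts* and *PolE2* were called higher at both ages, while *CG13744*, *CG15322* and *sona* were not called at 24 h, at −0.34, −1.21 and −1.53.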

How the results depend on the processing

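Scaling by library totals moved the 44 h comparison most. It then had 4716 calls, 4102 higher and 614 lower (87.0% higher, against 48.4%), the comparison with E2F wings 1040 higher and 380 lower, the difference from the 24 h effect 3302 calls, 2860 higher and 442 lower, and wild type 1322 lower. RNA content per cell was not measured, so which scaling reflects absolute levels was not tested. Leaving out each library in turn gave 2703 to 3007 calls for the 44 h comparison, 1360 to 1696 higher and 1311 to 1417 lower. The comparison with E2F wings had 768 to 1063 calls, against 1119 with all libraries and 1420 under library totals, and wild type 1324 to 1673, against 1756 and 1984. Against E2F wings the lower calls ranged from 418, without E2F + CycD replicate 2, to 649, and for the difference from 24 h the higher calls ranged from 668 to 1242, without control 44 h replicate 2. The cause was not tested. DESeq2 called 1467 higher and 1502 lower, RLE scaling 1501 and 1514, no low-count filter 1588 and 1500, and a fit of only the groups compared 1500 and 1332. With the replicate block there were 3001 calls, 1449 higher and 1552 lower. The blocked difference from the 24 h effect had 1745 calls. The deviations of same-numbered libraries of the 2 groups had r = −0.047, and over all 15 pairs of transgenic groups r lay between −0.095 and 0.234, over 0.1 in 6, so the numbers were not taken to pair the samples. Across the 156 named genes and the 10 settings of the 44 h comparison, 1491 of 1560 calls were the same, 68 were lost, 1 was gained and 0 reversed. List counts of 2 or fewer moved by up to 3 genes when a library was left out. Of the 156 named genes, scaling by library totals kept 120 calls, lost 35 and gained 1, more changes than under any other setting. Many of these genes were named for large and separated changes, which favours the same call across settings. With 2 libraries per group, genes under about 3 counts in both groups could not be compared.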

Other observations

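Genes annotated as ncRNA made up 58 (4.83%) of the 1200 risen genes and 103 (7.0%) of the 1471 fallen genes outside the 3 lists, against 437 (4.77%) of the 9164 tested. Replicate libraries of the control wings differed more than those of E2F + CycD wings. The E2F + CycD pair was more than 1 log2 unit apart for 187 of the 9164 genes and the control pair for 661. The difference between the 2 control libraries had a Pearson r of −0.024 with the wild-type change between 36 h and 44 h over 8406 genes, and that between the 2 E2F + CycD libraries −0.132, both given as descriptions.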
